A study of Mus musculus with 12 samples.

Results

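The genes described here are 8 cytosolic heat shock genes (Hspb1, Hspb8, Bag3, Hspa1a, Hspa1b, Dnajb1, Hspa8 and Hsph1) and the metallothionein genes Mt1 and Mt2, measured by RNA sequencing of whole mouse kidney. They were taken by symbol from a table of 28991 Ensembl genes, all 10 were present, and all 10 were among the 20370 genes with enough counts to test. The 12 libraries came from male BALB/c mice aged 8 weeks, in 4 groups of 3 mice. Combination mice were given 250 mg per kg of dichloroacetate each day for 5 days, and then 20 mg per kg of cisplatin together with dichloroacetate. Cisplatin mice received saline for 5 days and then the same dose of cisplatin, and both of these groups were killed 24 h after the injection. Dichloroacetate mice were given 250 mg per kg each day for 6 days, and saline mice received saline daily for 6 days. All injections were into the peritoneum, and the labels name no genetic change. Dichloroacetate inhibits the pyruvate dehydrogenase kinases, and cisplatin is a platinum drug whose use is limited by damage to the kidney tubule, against which the study tested dichloroacetate.

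Heat shock proteins are chaperones that bind unfolded proteins. When unfolded protein accumulates, the transcription factor HSF1 binds heat shock elements, inverted repeats of GAA and TTC, and raises the inducible genes Hspa1a, Hspa1b, Dnajb1, Hspb1, Bag3 and Hsph1, whereas Hspa8 is the constitutive cytosolic HSP70. Hspb1 and Hspb8 are small heat shock proteins that hold unfolded clients, Dnajb1 is a J protein that delivers clients to HSP70, and Bag3 and Hsph1 are nucleotide exchange factors of HSP70, of which Bag3 also pairs with Hspb8 in selective autophagy. Metallothioneins are small cysteine-rich proteins that bind zinc, copper and other metals including platinum. Their genes are driven by the zinc-sensing factor MTF1 through metal response elements, and also by glucocorticoids and oxidative stress.

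The windows around the start sites of 6 members are shown because they carry letters that match the elements of those factors. Windows run from 250 bases before to 50 after the RefSeq start site in GRCm38.p6, 5′ to 3′, and 9 of the 10 members had an entry in the RefSeq table (all but Hspa8). They are Hspb1 at chr5:135887669-135887968 on the plus strand, Bag3 at chr7:128523333-128523632 on the plus strand, Hspa1b at chr17:34959189-34959488 on the minus strand, Hsph1 at chr5:149636287-149636586 on the minus strand, Mt1 at chr8:94178839-94179138 on the plus strand and Mt2 at chr8:94172368-94172667 on the plus strand. Capitals mark heat shock elements of 2 units (GAANNTTC or TTCNNGAA) in the chaperone genes and metal response element cores (TGCACNC or TGCGCNC) in the metallothionein genes, searched on both strands.
Hspb1: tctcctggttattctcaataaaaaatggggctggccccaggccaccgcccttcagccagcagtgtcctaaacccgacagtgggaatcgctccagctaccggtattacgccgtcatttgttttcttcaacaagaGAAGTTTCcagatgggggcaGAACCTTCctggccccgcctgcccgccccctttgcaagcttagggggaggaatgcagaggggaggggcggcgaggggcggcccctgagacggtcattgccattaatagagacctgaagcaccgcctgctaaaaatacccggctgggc
Bag3: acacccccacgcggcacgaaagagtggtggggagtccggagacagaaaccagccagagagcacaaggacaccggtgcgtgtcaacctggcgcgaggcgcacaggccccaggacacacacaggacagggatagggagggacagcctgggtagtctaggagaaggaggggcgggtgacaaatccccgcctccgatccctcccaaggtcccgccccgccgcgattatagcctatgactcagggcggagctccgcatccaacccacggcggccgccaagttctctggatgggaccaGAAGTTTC
Hspa1b: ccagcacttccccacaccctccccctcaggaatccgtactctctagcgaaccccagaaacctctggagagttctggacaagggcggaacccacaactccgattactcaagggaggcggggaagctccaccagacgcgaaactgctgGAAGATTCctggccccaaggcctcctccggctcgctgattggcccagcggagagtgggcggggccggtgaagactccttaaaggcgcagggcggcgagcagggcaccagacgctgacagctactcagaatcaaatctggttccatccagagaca
Hsph1: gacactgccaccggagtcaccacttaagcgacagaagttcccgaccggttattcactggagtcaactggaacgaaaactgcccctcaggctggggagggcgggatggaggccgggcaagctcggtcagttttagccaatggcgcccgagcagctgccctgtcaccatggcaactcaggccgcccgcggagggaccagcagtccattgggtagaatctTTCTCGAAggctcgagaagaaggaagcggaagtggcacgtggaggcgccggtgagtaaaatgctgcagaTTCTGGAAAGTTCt
Mt1: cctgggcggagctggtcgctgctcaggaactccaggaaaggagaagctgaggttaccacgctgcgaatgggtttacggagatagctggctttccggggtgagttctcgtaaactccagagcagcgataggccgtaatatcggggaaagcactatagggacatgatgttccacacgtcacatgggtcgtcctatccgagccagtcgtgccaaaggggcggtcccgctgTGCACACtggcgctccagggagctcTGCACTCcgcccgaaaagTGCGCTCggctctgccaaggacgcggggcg
Mt2: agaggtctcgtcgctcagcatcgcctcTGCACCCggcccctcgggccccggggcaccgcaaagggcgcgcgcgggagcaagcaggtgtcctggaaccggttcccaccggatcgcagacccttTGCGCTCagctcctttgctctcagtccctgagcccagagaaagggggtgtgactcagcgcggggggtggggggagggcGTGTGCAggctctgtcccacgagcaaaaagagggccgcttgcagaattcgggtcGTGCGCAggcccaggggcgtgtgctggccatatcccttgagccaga
A heat shock element of 2 units was in the windows of 6 of the 7 chaperone genes listed, Dnajb1 having none, and in 15.1% of all 32851 promoter windows of the table. Hspb1 held 2 of them, at 117 and 97 bases before the start site, and the capitals in the windows of Hspa1a and Hspa1b began 104 bases before it. Hsph1 held an element of 3 units made of overlapping matches of 2 units, a motif that 0.603% of windows carried. The Bag3 match ended at the last base of its window, so a further unit beyond it could not be found. Mt1 held 3 metal response cores and Mt2 held 4, where 25.7% of all windows held at least 1. These numbers hold for the RefSeq start site used for each gene, and bases outside the windows were not searched. An antioxidant response element core (TGACNNNGC, in 12.4% of windows) was in the windows of Mt2, Dnajb1 and Hsph1. Over their 300 bases the Hspa1a and Hspa1b windows differed at 4. A match is a description of these letters and not of a factor bound there.

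**Figure D1:**
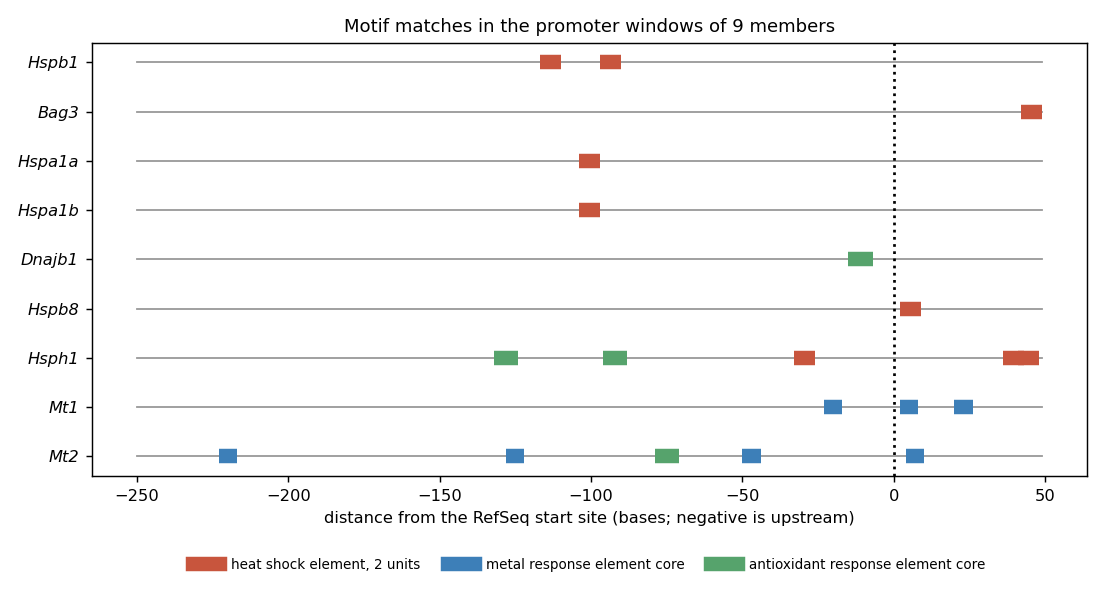
Positions of motif matches (coloured blocks) in the promoter windows of 9 members, by distance in bases from the RefSeq start site (dotted line). Metal response cores lie in the windows of Mt1 (3 matches) and Mt2 (4 matches), and heat shock elements of 2 units lie in those of 6 chaperone genes.

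Several members share sequence with copies elsewhere in the genome, which bears on what their counts mean. Of all 50-base words in the annotated transcripts of Hspa1a, 66.3% also occur in a transcript of another gene, mostly of Hspa1b, and the share was 62.3% for Hspa1b, 50.1% for Hspb1 and 39.4% for Hspa8. It was 0.412% for Dnajb1 and 0% for Bag3, Hspb8, Hsph1 and Mt1. For Mt2 it was 45.8%, all of it with an overlapping antisense annotation that the count table does not list. The copies had counts of their own in the table. Gm26825 on chromosome 5, annotated as a long noncoding RNA and sharing 34% of the words of Hspa8, had 68.6% to 70.4% of the Hspa8 count in every library, and the processed pseudogene Gm8355 had 16% to 16.9%. Hsp25-ps1, a processed pseudogene of Hspb1, had 34.7% to 43.7% of the Hspb1 count. Hspa1a and Hspa1b are therefore reported as an uncertain pair, and the values of Hspb1 and Hspa8 include whatever reads they share with their copies.

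Levels are in CPM, the count divided by the TMM-scaled size of its library, and each is comparable between libraries but not between genes. Differences were tested over all 20370 genes with the edgeR quasi-likelihood test, and a gene was called at a Benjamini-Hochberg adjusted p below 0.05. Cisplatin raised 8 of the 10 members relative to saline and lowered none, against 29.7% of all tested genes higher and 30.4% lower (60.1% called in all). The groups of 3 mice did not overlap for 8 members, against 64.8% of all tested genes. DESeq2 gave the same 8 and 0, and 9 members had an unadjusted p below 0.05. The median log2 fold change was 0.97 over the members and -0.01 over all tested genes. The members and the wider lists were chosen with earlier results of these data known. Their counts beside those of all tested genes, here and below, are therefore descriptions and not tests.

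Hspb1 (ENSMUSG00000004951, chr5:135887919-135889563, build mm10) had the largest rise among them. Its level was 35.3, 38.7 and 31.5 CPM in the cisplatin mice, against 7.15, 6.87 and 8.88 CPM in the saline mice. The lowest cisplatin mouse lay far above the highest saline mouse, and the log2 fold change was 2.21 (SE 0.10, adjusted p = 1.1e-09), a 4.63-fold difference. Bag3 (ENSMUSG00000030847, chr7:128523616-128546981) had 46.2, 42.3 and 39.9 CPM in cisplatin mice and 24.1, 21.4 and 23.5 CPM in saline mice. The groups were apart, with a log2 difference of 0.90 (SE 0.06, adjusted p = 5.9e-08).

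Hspa1a (ENSMUSG00000091971, chr17:34969190-34972156), an intronless inducible HSP70 gene, had 70.1, 82.4 and 70.6 CPM in cisplatin mice, against 37.0, 27.4 and 40.2 CPM in saline mice. Its neighbour Hspa1b (ENSMUSG00000090877, chr17:34956436-34959238) had 86.4, 104 and 86.2 CPM in cisplatin mice, against 42.8, 31.4 and 50.2 CPM in saline mice. Both genes were higher in each cisplatin mouse than in any saline mouse, by log2 fold changes of 1.10 (SE 0.13, adjusted p = 7.9e-06) for Hspa1a and 1.16 (SE 0.15, adjusted p = 2.0e-05) for Hspa1b. Added into a single row, the pair had 1.13 (adjusted p = 1.5e-05). The count of Hspa1b was 1.24 ± 0.0233 times that of Hspa1a in cisplatin mice and 1.18 ± 0.0563 times in saline mice (SD, n = 3 each), a ratio that the exact 2-sided permutation test did not separate (p = 0.3, where 0.1 is the smallest possible).

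The J protein gene Dnajb1 (ENSMUSG00000005483, chr8:83608193-83612653) changed less. It had 39.8, 42.2 and 37.4 CPM in cisplatin mice, against 26.8, 31.3 and 35.3 CPM in saline mice. The groups did not overlap but came close, and the log2 fold change was 0.36 (SE 0.09, adjusted p = 0.0042). Hspb8 (ENSMUSG00000041548, chr5:116408491-116422864), the least abundant member, had 6.05, 6.75 and 6.03 CPM in cisplatin mice, against 4.54, 4.58 and 4.31 CPM in saline mice. The mice of each group lay close together, and the log2 fold change was 0.48 (SE 0.09, adjusted p = 0.00027).

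Hspa8 and Hsph1 were not called. Hspa8 (ENSMUSG00000015656, chr9:40800984-40810087) had 1261, 1592 and 1574 CPM in cisplatin mice, against 1532, 1710 and 2444 CPM in saline mice. The groups overlapped, and the log2 fold change was -0.36 (SE 0.16, 95% interval -0.70 to -0.02, adjusted p = 0.062). Without saline replicate 1 it was -0.49 (adjusted p = 0.016), and it was also called without dichloroacetate replicate 1 (adjusted p = 0.0434) or 3 (adjusted p = 0.0495). It shrank to -0.14 (adjusted p = 0.385) without saline replicate 3 and to -0.24 (adjusted p = 0.257) without cisplatin replicate 1. Hsph1 (ENSMUSG00000029657, chr5:149614287-149636376), the HSP110 gene whose window holds the element of 3 units, had 124, 135 and 135 CPM in cisplatin mice, against 80.7, 100.04 and 149 CPM in saline mice. Saline replicate 3 lay above all cisplatin mice, and the log2 fold change was 0.26 (SE 0.16, adjusted p = 0.18), or 0.54 (adjusted p = 0.00042) without that mouse. It was 0.08 (adjusted p = 0.646) without saline replicate 1 and 0.19 (adjusted p = 0.388) without saline replicate 2.

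Saline replicate 3 was also high for many other chaperone genes. Of 61 tested genes in 5 lists (other HSP70 and HSP110 genes, HSP90 and cochaperones, other J proteins and exchange factors, chaperonin and prefoldin, and mitochondrial chaperones), 49 had their highest saline level in replicate 3, which is 80.3%, against 36.7% of all tested genes. The other small heat shock genes differed, with 2 of 7 tested genes highest in that mouse and 4 in replicate 1. In dichloroacetate mice the highest level was in replicate 3 for 60.7% of the 61 genes, against 37.6% of all tested genes. In combination mice it was in replicate 3 for 52.5%, against 36.3% of all tested genes. Cisplatin mice went the other way, with 31.1% against 38.6%. The labels give no batch, and what set replicate 3 apart in these groups was not tested.

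**Figure D2:**
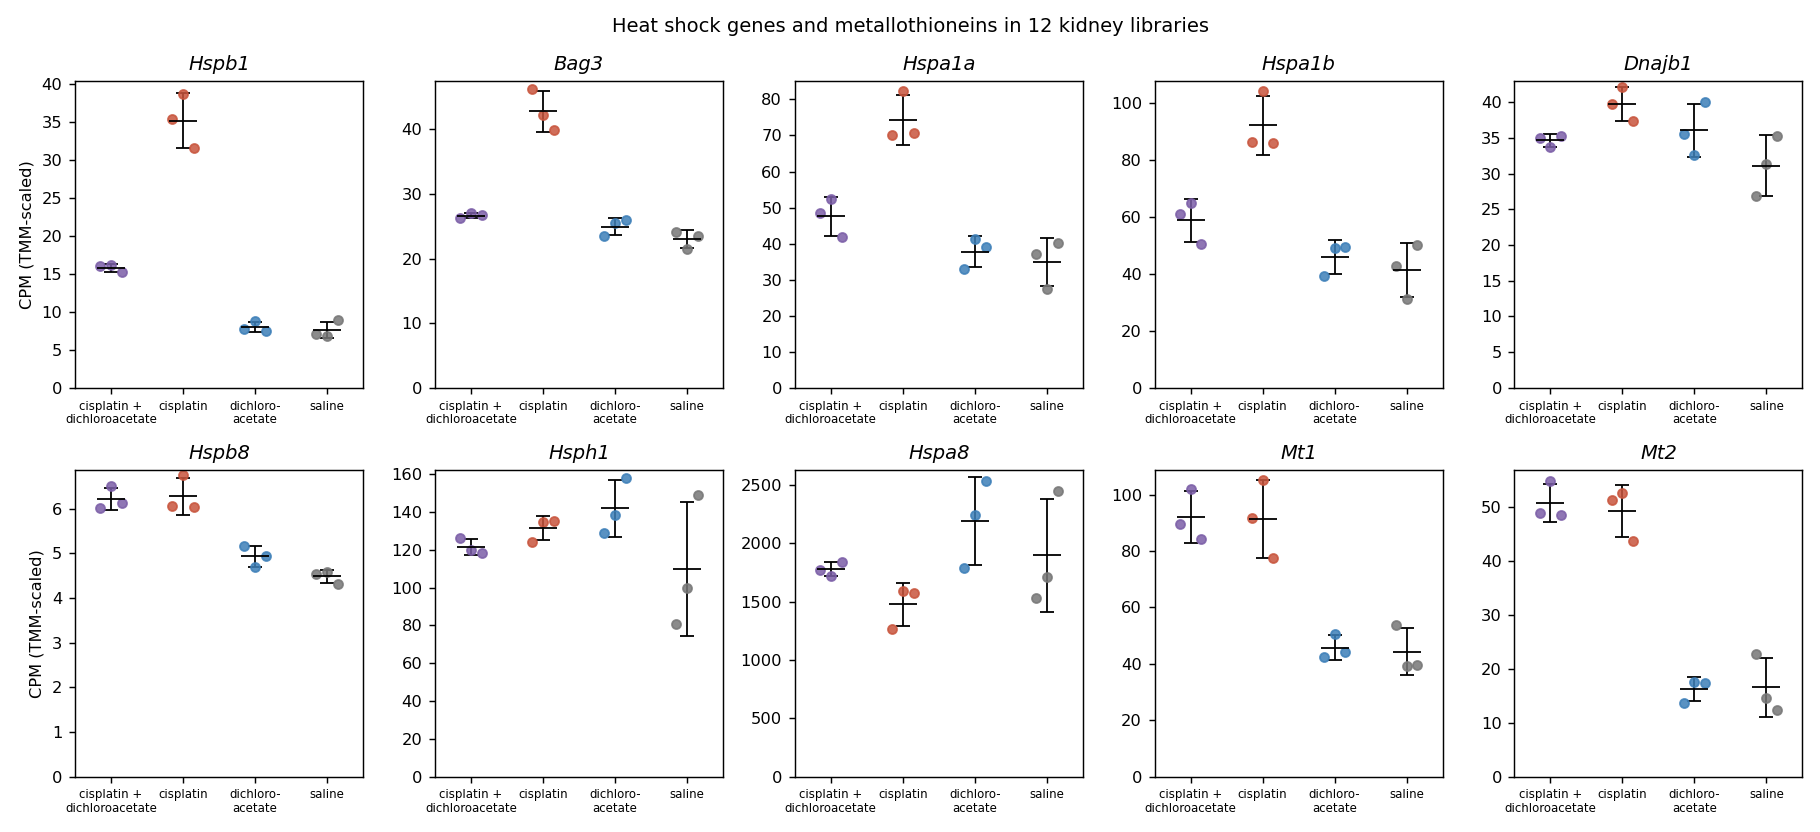
Level of each member in CPM (TMM-scaled, linear axis from 0) in every library, with points for the 3 mice of a group and a bar for their mean ± SD. Hspb1, Bag3, Hspa1a and Hspa1b are highest in cisplatin mice and lower in combination mice, whereas Mt1 and Mt2 lie at like levels in both groups given cisplatin.

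Mt1 and Mt2 rose together. Mt1 (ENSMUSG00000031765, chr8:94179082-94180327) had 91.8, 105 and 77.4 CPM in cisplatin mice, against 53.8, 39.3 and 39.7 CPM in saline mice. Mt2 (ENSMUSG00000031762, chr8:94172664-94173568) had 51.2, 52.7 and 43.7 CPM in cisplatin mice, against 22.8, 14.6 and 12.4 CPM in saline mice. Every cisplatin mouse exceeded every saline mouse for both genes, with log2 fold changes of 1.05 (SE 0.13, adjusted p = 1.4e-05) for Mt1 and 1.56 (SE 0.17, adjusted p = 3.6e-06) for Mt2. The count of Mt2 was 0.541 ± 0.0348 times that of Mt1 in cisplatin mice and 0.369 ± 0.0559 times in saline mice (SD, n = 3 each). The ratio was higher in all 3 cisplatin mice than in any saline mouse, which gave p = 0.1 in the exact 2-sided permutation test, the smallest that 3 against 3 allows.

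Dichloroacetate given with cisplatin was compared with cisplatin alone to ask whether it altered this response. Of the 10 members, 4 were lower in combination mice than in cisplatin mice and 0 were higher, against 13.5% of all tested genes lower and 18.1% higher (31.6% called in all). The 4 were Hspb1, Bag3, Hspa1a and Hspa1b, and each combination mouse lay below each cisplatin mouse for all 4. The groups did not overlap for 6 members, against 46.8% of all tested genes. DESeq2 also gave 4 lower and 0 higher, and 5 members had an unadjusted p below 0.05. The median log2 fold change was -0.16 over the members and 0.01 over all tested genes.

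Hspb1 had 16.02, 16.2 and 15.2 CPM in combination mice, against 35.3, 38.7 and 31.5 CPM in cisplatin mice. The log2 fold change was -1.15 (SE 0.10, adjusted p = 4.8e-06), and the 3 combination mice were nearly alike. Bag3 had 26.3, 27.0 and 26.7 CPM in combination mice, against 46.2, 42.3 and 39.9 CPM in cisplatin mice, a log2 difference of -0.68 (SE 0.06, adjusted p = 9.9e-06). Hspa1a had 48.5, 52.3 and 41.8 CPM in combination mice, against 70.1, 82.4 and 70.6 CPM in cisplatin mice, a log2 difference of -0.64 (SE 0.13, adjusted p = 0.0020). Hspa1b followed it with 61.3, 65.1 and 50.5 CPM in combination mice, against 86.4, 104 and 86.2 CPM in cisplatin mice, a log2 difference of -0.65 (SE 0.15, adjusted p = 0.0052). These 4 calls held with every one of the 12 libraries left out in turn.

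Mt1 and Mt2 were not called in that comparison. Mt1 had 89.5, 102 and 84.2 CPM in combination mice, against 91.8, 105 and 77.4 CPM in cisplatin mice, and the 95% interval of the log2 fold change ran from -0.28 to 0.29. Mt2 had 48.9, 54.7 and 48.5 CPM in combination mice, against 51.2, 52.7 and 43.7 CPM in cisplatin mice, with an interval from -0.31 to 0.40. The groups overlapped for both genes, whereas the interval for Hspb1 ran from -1.37 to -0.94 and that for Bag3 from -0.82 to -0.54. The count ratio of Mt2 to Mt1 was 0.553 ± 0.0206 in combination mice and 0.541 ± 0.0348 in cisplatin mice (SD, n = 3 each, exact permutation p = 0.7).

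The remaining members were also not called. Hspb8 had 6.01, 6.49 and 6.12 CPM in combination mice, against 6.05, 6.75 and 6.03 CPM in cisplatin mice (interval -0.20 to 0.17). Dnajb1 had 35.0, 33.7 and 35.3 CPM in combination mice, against 39.8, 42.2 and 37.4 CPM in cisplatin mice. Its groups were apart but the log2 fold change of -0.20 did not pass (SE 0.09, adjusted p = 0.12), although it did when these 6 libraries alone were fitted (adjusted p = 0.018). Hspa8 had 1773, 1717 and 1838 CPM in combination mice, all above the cisplatin mice at 1261, 1592 and 1574 CPM, with a log2 difference of 0.27 (SE 0.16, adjusted p = 0.23). Hsph1 had 126, 120.0 and 119 CPM in combination mice, against 124, 135 and 135 CPM in cisplatin mice.

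Combination mice were next compared with dichloroacetate mice, which gives the response to cisplatin under dichloroacetate. The groups compared share no mouse with those of cisplatin against saline. All 12 libraries were fitted together, however, so the calls of these comparisons are not independent. Of the 10 members, 4 were higher and 0 lower, against 21.5% of all tested genes higher and 19.2% lower (40.7% called in all). The groups did not overlap for 8 members, against 52.8% of all tested genes. DESeq2 gave 5 and 0, Hspa1a being the fifth, and 6 members had an unadjusted p below 0.05. The 4 were Mt1, Mt2, Hspb1 and Hspb8. Mt1 had 89.5, 102 and 84.2 CPM in combination mice, against 42.3, 50.6 and 44.2 CPM in dichloroacetate mice, a log2 difference of 1.01 (SE 0.13, adjusted p = 4.8e-05). Mt2 had 48.9, 54.7 and 48.5 CPM in combination mice, against 13.6, 17.6 and 17.3 CPM in dichloroacetate mice, a log2 difference of 1.66 (SE 0.17, adjusted p = 5.9e-06). For both genes every combination mouse lay above every dichloroacetate mouse.

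Hspb1 had 16.02, 16.2 and 15.2 CPM in combination mice, against 7.74, 8.76 and 7.47 CPM in dichloroacetate mice, a log2 difference of 0.99 (SE 0.10, adjusted p = 6.7e-06). Hspb8 had 6.01, 6.49 and 6.12 CPM in combination mice, against 5.17, 4.70 and 4.93 CPM in dichloroacetate mice, a log2 difference of 0.33 (SE 0.09, adjusted p = 0.0075). Bag3 had 26.3, 27.0 and 26.7 CPM in combination mice, against 23.4, 25.5 and 26.0 CPM in dichloroacetate mice. The Bag3 groups were just apart, and the log2 fold change of 0.10 was not called (SE 0.07, adjusted p = 0.26). Hspa1a at 0.34 (SE 0.13, adjusted p = 0.055) and Hspa1b at 0.36 (SE 0.15, adjusted p = 0.076) missed the threshold, and several alternatives moved them past it. Dnajb1 had -0.06 (95% interval -0.25 to 0.14), Hspa8 had -0.30 (-0.64 to 0.04) and Hsph1 had -0.22 (-0.57 to 0.12).

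The difference between these responses was tested as an interaction, the log2 response to cisplatin with dichloroacetate minus that without it. It was called and negative for 5 of 10 members (Hspb1, Bag3, Hspa1a, Hspa1b and Dnajb1) and positive for 0, against 7.15% of all tested genes negative and 11.4% positive (18.6% called in all). DESeq2 gave 5 and 0. The value was -1.22 for Hspb1 (SE 0.15, adjusted p = 0.00016) and -0.80 for Bag3 (SE 0.09, adjusted p = 0.00013). It was -0.76 for Hspa1a (SE 0.18, adjusted p = 0.012) and -0.80 for Hspa1b (SE 0.21, adjusted p = 0.020), of which Hspa1b was lost without cisplatin replicate 2 (-0.70, adjusted p = 0.058). Dnajb1 had -0.41 (SE 0.13, adjusted p = 0.041), a call lost in 8 of the 12 fits that left out a library, with adjusted p up to 0.103 (without cisplatin replicate 2). Mt1 had -0.04 (95% interval -0.44 to 0.37), Mt2 had 0.09 (-0.42 to 0.61), Hspb8 had -0.15 (-0.41 to 0.11), Hspa8 had 0.06 (-0.42 to 0.54) and Hsph1 had -0.48 (-0.97 to 0.01). Without saline replicate 3 Hsph1 had -0.76 (adjusted p = 0.0022), and without saline replicate 1 it had -0.30 (adjusted p = 0.282).

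**Figure D3:**
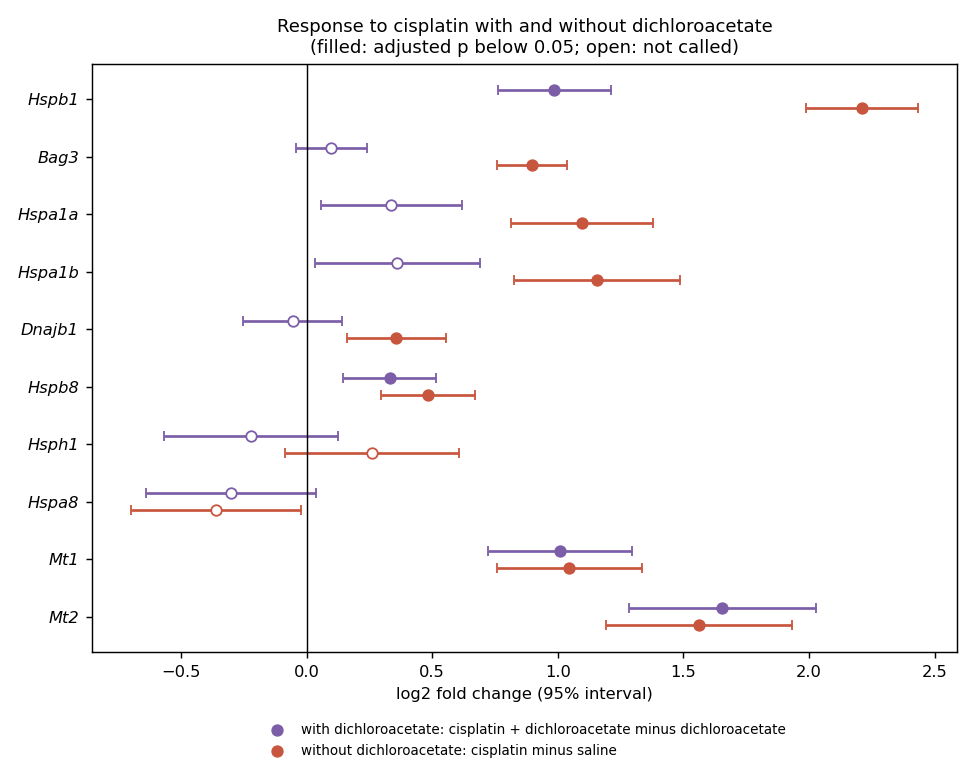
Log2 fold change of each member for cisplatin under dichloroacetate (combination minus dichloroacetate, purple) and for cisplatin without it (cisplatin minus saline, red), with 95% intervals and filled points for adjusted p below 0.05. The intervals of Hspb1, Bag3, Hspa1a, Hspa1b and Dnajb1 do not overlap between the responses, and those of Mt1 and Mt2 lie over each other.

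Relative to saline, 7 members were higher in combination mice and 0 lower, against 20.6% of all tested genes higher and 19.6% lower (40.2% called in all). The groups did not overlap for 7 members, against 50.3% of all tested genes. DESeq2 gave the same 7 and 0, and 7 had an unadjusted p below 0.05. Mt2 at 1.61 (SE 0.17), Hspb1 at 1.06 (SE 0.10), Mt1 at 1.05 (SE 0.13) and Hspb8 at 0.47 (SE 0.09) were called with every library left out in turn. Hspa1b at 0.51 (SE 0.15, adjusted p = 0.017), Hspa1a at 0.45 (SE 0.13, adjusted p = 0.015) and Bag3 at 0.22 (SE 0.07, adjusted p = 0.018) were lost without saline replicate 2, where they had 0.34, 0.30 and 0.17, and without combination replicate 2. Bag3 was also lost without combination replicate 3 (adjusted p = 0.056), and Hspa1b without combination replicate 1 (adjusted p = 0.053). Without saline replicate 3, Hsph1 at 0.43 (adjusted p = 0.0041) and Dnajb1 at 0.25 (adjusted p = 0.040) were called as well, whereas without saline replicate 1 Hsph1 had -0.03 (adjusted p = 0.871) and Dnajb1 had 0.06 (adjusted p = 0.618).

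Dichloroacetate alone gave 0 calls among the members, against 0.309% of all tested genes called (0.128% higher and 0.182% lower). The groups did not overlap for 1 member, Hspb8, against 16% of all tested genes. DESeq2 also called 0, and 2 members (Dnajb1 and Hsph1) had an unadjusted p below 0.05. Dnajb1 had 35.6, 32.6 and 40.0 CPM in dichloroacetate mice, against 26.8, 31.3 and 35.3 CPM in saline mice, a log2 difference of 0.21 (SE 0.09, adjusted p = 0.38). Hsph1 had 129, 139 and 158 CPM in dichloroacetate mice, against 80.7, 100.04 and 149 CPM in saline mice, a log2 difference of 0.37 (SE 0.16, adjusted p = 0.38), and it was called without saline replicate 3 (0.65, adjusted p = 0.017). Without saline replicate 1 Hsph1 had 0.19 (adjusted p = 0.72) and Dnajb1 had 0.12 (adjusted p = 0.724). The metallothioneins had -0.05 (95% interval -0.43 to 0.33) for Mt2 and 0.04 (-0.24 to 0.33) for Mt1, and Hspb1 had 0.07 (-0.16 to 0.30).

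Per length, which allows a rough comparison of genes, Hspa8 was by far the most abundant member. Divided by the union of annotated exons, its level in saline mice was 441 CPM per kb (range 356 to 568), followed by Mt1 at 35.5 (31.5 to 43.2) and Mt2 at 28.2 (21.1 to 38.8). The ranges of Mt1 and Mt2 overlapped. The exon union of Mt1 spans its whole gene because an unspliced transcript is annotated, so its length includes introns. Then came Hsph1 at 15.1 (11.1 to 20.5), Hspa1b at 14.8 (11.2 to 17.9), Hspa1a at 11.8 (9.23 to 13.5), Dnajb1 at 9.71 (8.37 to 11.0), Bag3 at 8.97 (8.36 to 9.39) and Hspb1 at 7.41 (6.66 to 8.62), and among these 6 the range of each overlapped that of the next. Hspb8 was lowest at 2.30 (2.21 to 2.35). In cisplatin mice Hspb1 had 34.1 CPM per kb (30.6 to 37.5) and overlapped Hspa1b at 32.9 (30.7 to 37.2), while Hspb8 remained the lowest at 3.22 (3.09 to 3.46). The exon unions merge all annotated transcripts of a gene, which for Hspa8 gave 4301 bases in 3 merged blocks. Counts of Hspa8 also include whatever reads it shares with its copies, so the order between genes is approximate.

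Wider lists of chaperone genes are set beside these changes, and their counts are read against the shares of all tested genes. With cisplatin, 29.7% of all tested genes were higher and 30.4% lower. In combination against cisplatin mice, 13.5% were lower and 18.1% higher. All 6 other heat-inducible genes rose with cisplatin, and in combination mice 4 of the 6 were lower than in cisplatin mice and 0 higher. Zfand2a, an HSF1-regulated zinc finger gene of the proteasome pathway, averaged 13.7 ± 1.19 CPM in combination mice, 27.1 ± 4.22 CPM in cisplatin mice, 12.9 ± 0.567 CPM in dichloroacetate mice and 12.4 ± 0.484 CPM in saline mice (SD, n = 3 each). Its interaction was -1.03 (SE 0.15, adjusted p = 0.00049). Ier5, a stress-responsive regulator of HSF1 that is also a p53 target, had 26.6 ± 2.18 CPM in combination mice, 50.6 ± 7.42 CPM in cisplatin mice, 8.95 ± 1.51 CPM in dichloroacetate mice and 9.15 ± 1.25 CPM in saline mice. Sqstm1, an autophagy receptor also induced by NRF2, had an interaction of -0.60 (SE 0.09, adjusted p = 0.00060).

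Among HSP90 and its cochaperones, 7 of 13 were higher and 1 lower in cisplatin mice than in saline mice (median log2 fold change 0.25). Of all tested genes, 29.7% were higher and 30.4% lower. In combination mice 4 were lower and 0 higher than in cisplatin mice, against 13.5% and 18.1% of all tested genes. Hsp90aa1, the inducible HSP90, averaged 418 ± 15.04 CPM in combination mice, 579 ± 25.8 CPM in cisplatin mice, 332 ± 43.3 CPM in dichloroacetate mice and 284 ± 36.4 CPM in saline mice (SD, n = 3 each). Its interaction was -0.70 (SE 0.13, adjusted p = 0.0032). The cochaperones Ptges3 and Ppid had interactions of -0.48 (adjusted p = 0.0083) and -0.58 (adjusted p = 0.00030). Of 16 other J proteins and nucleotide exchange factors, 8 were higher and 2 lower with cisplatin (median 0.12), against the same 29.7% and 30.4%. In combination mice 5 were lower and 0 higher than in cisplatin mice, against 13.5% and 18.1%. Dnajb4, a close relative of Dnajb1, had an interaction of -1.02 (SE 0.11, adjusted p = 0.00010), and Bag2, which inhibits the ubiquitin ligase CHIP, rose by 1.80 with cisplatin and had an interaction of -0.38 (SE 0.11, adjusted p = 0.031).

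Other HSP70 and HSP110 genes were mixed. Of 7 tested, 3 were higher and 1 lower with cisplatin (median 0.10), against 29.7% and 30.4% of all tested genes. In combination mice 2 were lower and 0 higher than in cisplatin mice, against 13.5% and 18.1%. Hspa4l, an HSP110 relative, had 0.63 with cisplatin, Hspa4 had 0.40 and Hspa12a had -0.99. Hspa4, another HSP110 relative, was lower in combination than in cisplatin mice (-0.24, SE 0.05, adjusted p = 0.0025) and had an interaction of -0.39 (SE 0.07, adjusted p = 0.0018). Hspa1l had 0.87 with cisplatin and an interaction of -0.57 (adjusted p = 0.044), but it shares 50-base words with Hspa1a and had 11.3% to 15.8% of the Hspa1a count in each library, and the part of its count that comes from shared reads was not measured.

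Of 7 other small heat shock genes tested, 4 were higher and 0 lower with cisplatin (median 0.94), against 29.7% and 30.4% of all tested genes. In combination mice 1 was lower than in cisplatin mice, which is near the 13.5% of all tested genes. Relative to dichloroacetate mice, 6 were higher in combination mice, against 21.5% of all tested genes. Cryab, alpha B-crystallin, averaged 161 ± 28.1 CPM in combination mice, 149 ± 22.6 CPM in cisplatin mice, 52.9 ± 12.3 CPM in dichloroacetate mice and 46.9 ± 3.53 CPM in saline mice (SD, n = 3 each). Its interaction of -0.06 was not called (SE 0.23, adjusted p = 0.90). Cryaa, alpha A-crystallin, is of low abundance and is named here after its values were seen. It had 0.585, 0.625 and 0.822 CPM in combination mice, 3.38, 2.38 and 2.12 CPM in cisplatin mice, 0.454, 0.124 and 0.216 CPM in dichloroacetate mice and 0.155, 0.230 and 0.173 CPM in saline mice. Its log2 fold change was 3.78 with cisplatin (SE 0.35, adjusted p = 6.8e-07) and -1.95 in combination against cisplatin mice (SE 0.30, adjusted p = 0.00028), and its interaction was -2.52 (SE 0.54, adjusted p = 0.0061).

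Among the subunits of the cytosolic chaperonin CCT and of prefoldin, which fold actin and tubulin, 9 of 14 were higher and 1 lower with cisplatin (median 0.32). Cct3 had 0.58 and Cct5 had 0.53, and 29.7% of all tested genes were higher and 30.4% lower. The interaction was negative for 6, all of them CCT subunits, and positive for 1 (Pfdn4), against 7.15% and 11.4% of all tested genes. In combination mice 4 were lower than in cisplatin mice (Cct3, Cct4, Cct5 and Cct8) and 2 higher (Pfdn1 and Pfdn4). Of all tested genes, 13.5% were lower and 18.1% higher there. Among mitochondrial chaperones and proteases, 2 of 11 were higher and 5 lower with cisplatin (median -0.13), against the same 29.7% and 30.4%. In combination mice 4 were higher and 0 lower than in cisplatin mice, against 18.1% and 13.5% of all tested genes. The disaggregase Clpb averaged 39.0 ± 0.492 CPM in combination mice, 25.0 ± 3.78 CPM in cisplatin mice, 61.8 ± 1.95 CPM in dichloroacetate mice and 63.6 ± 5.70 CPM in saline mice (SD, n = 3 each). Trap1, the mitochondrial HSP90, had -0.82 with cisplatin and an interaction of 0.40 (adjusted p = 0.0035), and Hspd1, the mitochondrial chaperonin, had -0.47 with an interaction that was not called.

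Of 4 genes of heat shock factors and their repressor, 2 were higher and 1 lower with cisplatin, against 29.7% and 30.4% of all tested genes. Hsf1 averaged 31.1 ± 1.38 CPM in cisplatin mice and 27.1 ± 1.43 CPM in saline mice (SD, n = 3 each), a log2 fold change of 0.20 (adjusted p = 0.0052). Hsf2 had 0.39 (adjusted p = 0.00023), Hsbp1, which encodes an HSF1-binding repressor, had -0.16 (adjusted p = 0.037) and Hsf4 was not called. Of the 4, only Hsf2 had a called interaction, at -0.33 (adjusted p = 0.031). In combination mice 2 were lower and 0 higher than in cisplatin mice, against 13.5% and 18.1% of all tested genes. The 2 were Hsf1 (-0.16, adjusted p = 0.042) and Hsf2 (-0.20, adjusted p = 0.041). Mtf1, which encodes the zinc sensor, had 0.38 with cisplatin (adjusted p = 4.1e-05).

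**Figure D4:**
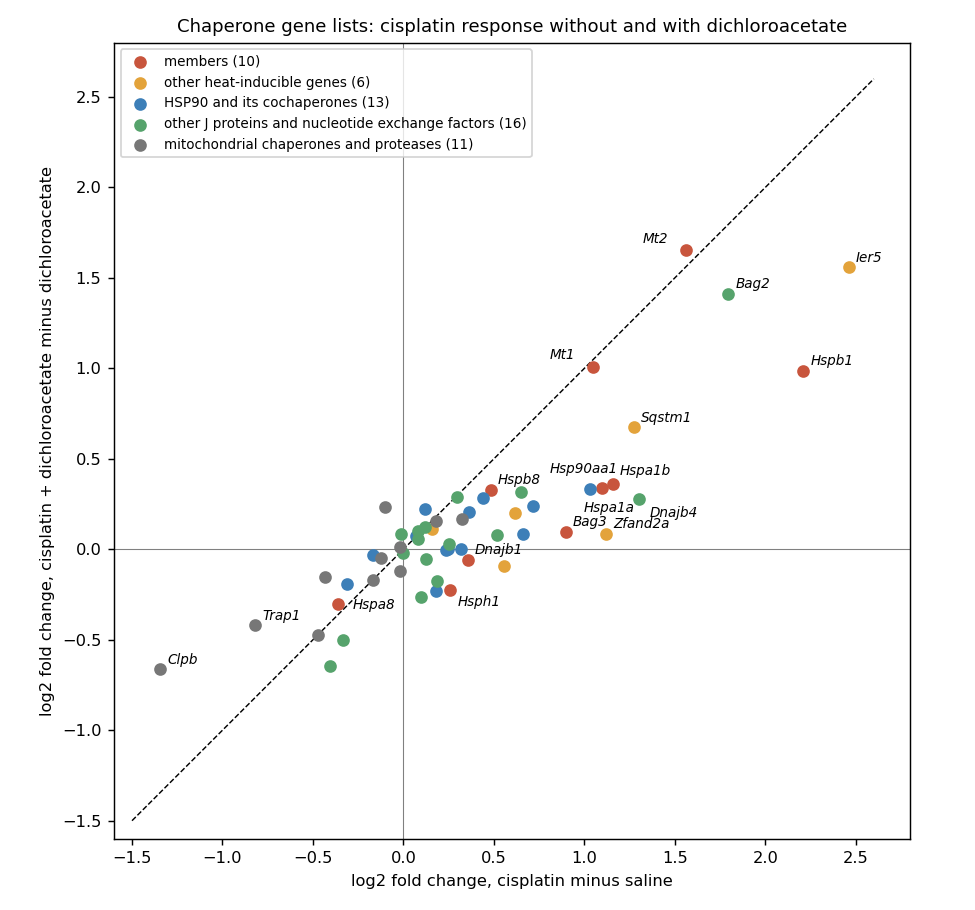
Log2 fold change for cisplatin under dichloroacetate (combination minus dichloroacetate, vertical axis) against that without it (cisplatin minus saline, horizontal axis) for tested genes of 5 lists, 1 point per gene, with a dashed line of equal responses. The axes compare different groups of mice, and all 12 libraries were fitted together. Mt1 and Mt2 lie near the line, and Hspb1, Bag3, Hspa1a, Hspa1b, Zfand2a, Dnajb4 and Hsp90aa1 lie below it.

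Lists of metal handling genes are read against the 29.7% higher and 30.4% lower among all tested genes with cisplatin. Of 8 tested genes of zinc sensing and export, 2 were higher and 3 lower (median 0.07), a split near that background. Slc30a9 had 0.70 and Slc30a2 had -0.86. Slc30a1, an exporter gene and classical MTF1 target named here after its values were seen, had 0.19 (SE 0.09, adjusted p = 0.075). Of 13 zinc importers, 5 were higher and 3 lower with cisplatin (median -0.02), also near it. Their interaction was negative for 5 and positive for 0, against 7.15% and 11.4% of all tested genes. In combination mice 4 importers were lower and 2 higher than in cisplatin mice, against 13.5% and 18.1%. Of the zinc sensing and export genes, 0 had a called interaction. Slc39a11 had -2.58 without dichloroacetate and -2.63 with it, and Slc39a6 had 1.25 with cisplatin and an interaction of -0.67 (adjusted p = 0.016). Mt3, the only other metallothionein in the table, averaged 0.199 ± 0.0121 CPM in combination mice, 0.231 ± 0.0636 CPM in cisplatin mice, 0.556 ± 0.0787 CPM in dichloroacetate mice and 0.568 ± 0.116 CPM in saline mice (SD, n = 3 each). It fell with cisplatin (log2 fold change -1.27, SE 0.27, adjusted p = 0.0011), the direction opposite to Mt1 and Mt2.

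Of 9 copper handling genes, 5 were higher and 3 lower with cisplatin, against 29.7% and 30.4% of all tested genes (median 0.19), including the copper chaperones Atox1 at 0.49 and Ccs at -0.64. Of 10 glucocorticoid-responsive genes, 4 were higher and 3 lower (median 0.08), which is near the same background. The 3 that fell were Dusp1 (-0.69, adjusted p = 0.0014), Tsc22d3 (-0.52, adjusted p = 0.013) and Klf9 (-0.47, adjusted p = 0.0028). They are named here after their values were seen. Zbtb16 had 2.62 without dichloroacetate and 3.45 with it, with an interaction that was not called (0.83, adjusted p = 0.34), and Ddit4, which is also induced by other stresses, had 1.69 and 0.51 and an interaction of -1.18 (SE 0.18, adjusted p = 0.00088).

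Likeness to single members was measured over the 12 libraries as the root mean square difference of log2 CPM, each gene centred on its saline mean. The genes nearest to Hspb1 were its sequence copies Hsp25-ps1 and Gm9817 (both 0.09), followed by Smox, spermine oxidase (0.17), an identifier without annotation here (0.18) and Bcl3, a nuclear IkB protein (0.19). Nearest to Hspa8 were copies of its own sequence (Gm26825 at 0.01 and Gm8355 at 0.02, and an identifier without annotation whose 12 counts equal those of Gm26825) and the small nucleolar RNA genes Snord14d and Snord14c, which lie within the Hspa8 gene (both 0.03). Nearest to Mt1 were Cdc42bpg (0.17), Sesn3 (0.18), Ccdc24 (0.18), Mad2l2 (0.18) and Bcl2l1 (0.18). Bcl2l1, which encodes the survival protein BCL-XL, averaged 171 CPM in combination mice, 180.0 CPM in cisplatin mice, 83.5 CPM in dichloroacetate mice and 84.4 CPM in saline mice.

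Library totals were 29505929 to 35082408 counts in combination mice, 29614283 to 35925471 in cisplatin mice, 41525403 to 62237514 in dichloroacetate mice and 38236592 to 55832441 in saline mice. Even the least abundant member, Hspb8, had at least 150 counts in each library. The labelled tissue was checked by markers. Proximal tubule markers (6 genes) summed to 4513 to 4946 CPM in combination mice, 2593 to 3010 in cisplatin mice, 7543 to 8461 in dichloroacetate mice and 8224 to 9196 in saline mice. All 6 fell with cisplatin and all 6 were higher in combination than in cisplatin mice, and in whole kidney a loss of cells cannot be told apart from less RNA per cell. Skeletal muscle markers, relevant because Hspb8, Bag3 and Cryab are abundant in muscle, summed to at most 0.951 CPM in any library, and neutrophil and lymphocyte markers to at most 3.33 and 1.76 CPM. Macrophage markers (5 genes) summed to 69.5 to 79.3 CPM in combination mice, 91.1 to 103 in cisplatin mice, 80.3 to 135 in dichloroacetate mice and 99.3 to 118 in saline mice. Thick ascending limb and distal tubule markers summed to 1585 to 2477 CPM in combination mice, 1690 to 2173 in cisplatin mice, 3561 to 4000 in dichloroacetate mice and 3801 to 4322 in saline mice, and all 5 fell with cisplatin. Erythroid markers (5 of 5 fell) summed to 97.9 to 113 CPM in combination mice, 65.5 to 133 in cisplatin mice, 236 to 644 in dichloroacetate mice and 248 to 613 in saline mice. Genes of the hepatocyte list (4 of 5 fell and 1 rose) summed to 529 to 726 CPM in combination mice, 377 to 438 in cisplatin mice, 2332 to 3230 in dichloroacetate mice and 1898 to 2368 in saline mice. With cisplatin 4 of 5 podocyte, 3 of 5 endothelial, 3 of 5 collecting duct and 1 of 6 fibroblast and smooth muscle markers fell as well, and 0 of these rose. Whether these changes in markers have a part in the changes of the heat shock genes was not tested.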

How the data were processed

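Read counts deposited by the authors, as whole numbers for each Ensembl gene and library, were the input, and their normalised values were not used. Per the submitters' processing notes, Trimmomatic, TopHat, Cufflinks, HTSeq, bedtools and DESeq were used with build mm10. The sources used here do not say how multiply aligned reads or strand were handled. The kit was a TruSeq RNA kit, per the labels' protocols.

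Symbols, positions and exon lengths came from GENCODE M21 (GRCm38, the assembly of mm10), matching 27955 of 28991 identifiers. In R 4.3.3, genes passing filterByExpr of edgeR 4.0.16 (20370) were fitted with TMM scaling and 1 mean per group over all 12 libraries (biological coefficient of variation 0.092), and tested with the 2-sided quasi-likelihood test and Benjamini-Hochberg adjustment. DESeq2 1.42.0 was an alternative, with others described in the closing section. Replicate pairs differed by more than sampling noise (chi-square per degree of freedom 4.40 to 26.3) and the labels describe each library as a treated mouse, so each was 1 sample. Every member had at least 150 counts in each library, the fewest being those of Hspb8. The part of depth in the spread was not measured, and 3 mice per group limit the precision.

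Members and gene lists were chosen with earlier results of these data known. From each other list the text names up to 3 called genes with the largest cisplatin change and up to 2 with the largest called interaction, at 5 CPM or more in the higher group, and the 5 genes nearest to Hspb1, Hspa8 and Mt1. Hspa14 and Mt4 were not matched to the table.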

Additional observations from a re-analysis of the deposited data

Results flagged for a closer look

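The response to cisplatin differed between mice with and without dichloroacetate for 5 members, by the test of the interaction in edgeR. The log2 response with dichloroacetate minus that without it was -1.22 for Hspb1 (SE 0.15, adjusted p = 0.00016), -0.80 for Bag3 (SE 0.09, adjusted p = 0.00013), -0.76 for Hspa1a (SE 0.18, adjusted p = 0.012), -0.80 for Hspa1b (SE 0.21, adjusted p = 0.020) and -0.41 for Dnajb1 (SE 0.13, adjusted p = 0.041). The Dnajb1 call was lost in 8 of 17 alternative fits (adjusted p up to 0.103). That of Hspa1b was lost without cisplatin replicate 2 (adjusted p = 0.058). The calls of Hspb1, Bag3 and Hspa1a held in every alternative. Hspa1a and Hspa1b share most of their sequence and do not count as independent observations.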

How the results depend on the processing

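Over 60 pairs of member and comparison, 44 kept their side of the threshold in every alternative run. Of these, 32 also kept their direction and 12, none of them called, had values on both sides of 0. Further, among 1064 values 17 lost a call, 24 gained one and 0 changed direction while called. In dichloroacetate against saline, genes called higher numbered 26, against 182 with DESeq2, 55 without the filter, 6 with only the groups compared, 56 with the replicate block and 5 to 72 with a library left out (5 without cisplatin replicate 2 or combination replicate 1, 72 without saline replicate 3). Those called lower numbered 37, against 154, 64, 9 and 61 under the same settings and 7 to 54 with a library left out (7 without dichloroacetate replicate 1). Members called lower in cisplatin against saline numbered 0, but 1 (Hspa8) without the filter and 1 with the replicate block, and 0 to 1 with a library left out. In the combination against dichloroacetate, 1 member was lower with only the groups compared (Hsph1) and 1 with the replicate block (Hspa8). With a library left out, members called higher ran from 0 to 1 in dichloroacetate against saline and from 4 (without saline replicate 2 or combination replicate 2) to 9 (without saline replicate 3) in the combination against saline. Members with a negative interaction ran from 3 (without cisplatin replicate 2) to 6, and genes with a positive interaction from 1538 (without cisplatin replicate 1) to 2607. The cause of these changes was not tested. The labels state no pairing of replicate numbers between groups. Correlations of same-numbered deviations ran from -0.10 to 0.15, and those of differently numbered ones from -0.22 to 0.19. These ranges do not settle whether a replicate number marks a shared batch, which was not tested. The replicate block changed no other call of a member.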
